A study of Oncorhynchus mykiss with 3 samples.

Results

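The miR-126 family of rainbow trout eggs was described across all its names, arms and sequences. Its members were chosen by name only, as known miRNAs called miR-126 or mir-126 with or without a letter, which 6 of the 575 known names and 9 of the 1059 known sequences are. Eggs of Oncorhynchus mykiss from a commercial population made up the groups D1PO, D7PO and D14PO, which had stayed in the female for 1, 7 or 14 days since ovulation with no other treatment named, and the labels give survival rates of 91.8%, 73.4% and below 50%. The study reports these values as fertilization rates, scored by cleavage of embryos. Each age was 1 small RNA library from RNA pooled over females, so there is no replicate. The table has 1 number of reads for each unique sequence and names no library, so no value of a single age is given here. That number was taken as pooled over the 3 libraries, and its 95% intervals cover counting error only.

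miR-126 is known as the miRNA of endothelial cells, the cells that line blood vessels. In zebrafish and mouse its precursor lies in an intron of egfl7, a gene of the vessel wall, and in zebrafish the loss of miR-126 weakens vessels and lets them bleed. A precursor hairpin gives an arm from its 5′ side and an arm from its 3′ side. In mouse and zebrafish the 3p arm represses Spred1 and Pik3r2, inhibitors of the signalling of vascular growth factors, and bases 2 to 8 of an arm, the seed, are the main part that pairs with a target mRNA.

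The 3 names written miR-126 held the arms that the family is known by. Their 4 sequences are shown because they fix which reads belong to which arm and hairpin, with the seed in capitals.
omy-miR-126-3p, 21 nt: uCGUACCGugaguaauaaugc
omy-miR-126-3p, 22 nt: uCGUACCGugaguaauaaugca
omy-miR-126a-3p, 22 nt: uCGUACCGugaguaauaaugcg
omy-miR-126b-5p, 21 nt: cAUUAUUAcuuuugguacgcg
The 3p sequences share 1 seed and their first 21 bases. The 22-nt sequences differ by A22G, counted from 1 at the 5′ end, with the base of omy-miR-126-3p first. Neither the 3p seed nor the 5p seed occurred at bases 2 to 8, or anywhere else, in the other 1050 known sequences or the 359 predicted ones.

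The 3 names written mir-126, with a small r, held 5 other sequences. They are shown because the spelling of the name alone sets them apart from the names above.
omy-mir-126a-3p, 15 nt: uAAUGAACuguggca
omy-mir-126b-3p, 16 nt: uGCACUGUgacucgug
omy-mir-126a-5p, 16 nt: uUAACUCCuucacagu
omy-mir-126a-5p, 17 nt: uUAACUCCuucacaguc
omy-mir-126a-5p, 18 nt: uUAACUCCuucacagucu
None of them has the seed of either arm. The table lists no hairpin position in the trout genome for any of them, so it places them by miRBase alone. Whether their bases occur in the genome was not tested.

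By the deposited numbers, the most read sequence was the 21-nt omy-miR-126-3p with 23575 reads (95% Poisson interval 23275 to 23878). omy-miR-126a-3p had 11696 reads (11485 to 11910) and the 22-nt omy-miR-126-3p had 10160 (9963 to 10360). The 5p arm, omy-miR-126b-5p, had 3968 reads (3845 to 4093), fewer than any 3p sequence of these names. These 4 intervals do not overlap, but the 21-nt number may include the reads of the 22-nt sequences that extend it. If so, at most 1719 reads would end at base 21, fewer than the reads of omy-miR-126b-5p.

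Among the names written mir-126, omy-mir-126a-3p had 16135 reads (15887 to 16386), second by the deposited numbers to the 21-nt omy-miR-126-3p among the 9 sequences. The sequences of omy-mir-126a-5p had 5814, 5762 and 5759 reads at 16, 17 and 18 nt, and their intervals overlap. Each of these numbers may include the reads of the longer forms. omy-mir-126b-3p had 83 reads (66.1 to 102.9). The members thus ran from 83 to 23575 reads, and all but omy-mir-126b-3p had 3968 or more.

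**Figure D1:**
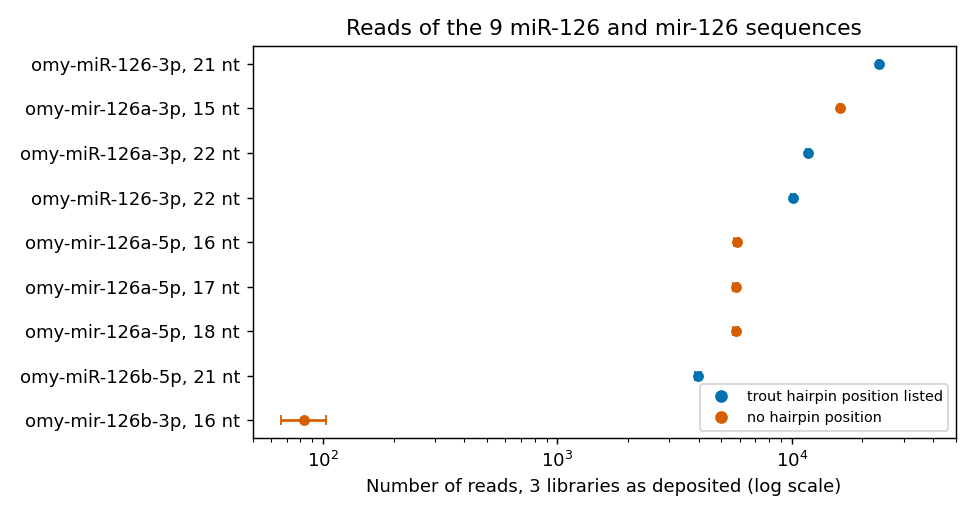
Number of reads (log axis) of each of the 9 sequences, with 95% Poisson intervals for counting error, which are narrower than most points. The 21-nt omy-miR-126-3p lies highest at 23575 and omy-mir-126b-3p lowest at 83, and the 5 sequences without a hairpin position (orange) lie among those with one (blue).

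The number of reads could not be summed over sequences without a further check. The 21-nt omy-miR-126-3p, at 23575 reads, lies above the 21856 of the 22-nt sequences that extend it, when these are summed. The omy-mir-126a-5p sequences also fell with each added base, by 52 reads and then by 3. The same order held in the rest of the deposit. In 346 of 346 pairs where a listed sequence starts with another, over known and predicted miRNAs, the shorter had at least as many reads as the longer, and in 13 they were equal. In 256 of 256 sequences with listed extensions, the sequence had at least the summed reads of those that extend it directly. In another 123 of 123 pairs, where the shorter sequence lies further inside the longer, the shorter again had at least as many reads.

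Neither the file headers nor the methods say whether the reads of a sequence include those of its longer forms. If they do, the 3p arm had 23575 reads, 1719 of which (7.29% of 23575, Clopper-Pearson interval 6.96 to 7.63) would end at base 21. If they do not, the 3 sequences had 45431 reads together (45014 to 45851). Over all known sequences the column sums to 7684127, or to 5913770 with only the shortest of nested sequences, where the longer starts with the shorter. The first sum lies above the total of reads matched to miRBase that the study states over its libraries, and the second lies below that total. Sequences that lie further inside a longer one were not taken out. The second sum, and shares from it, may thus still count reads more than once. Shares and ranks are therefore given below from sums and, as a comparison added after the data were seen, with the shortest of nested sequences only.

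**Figure D2:**
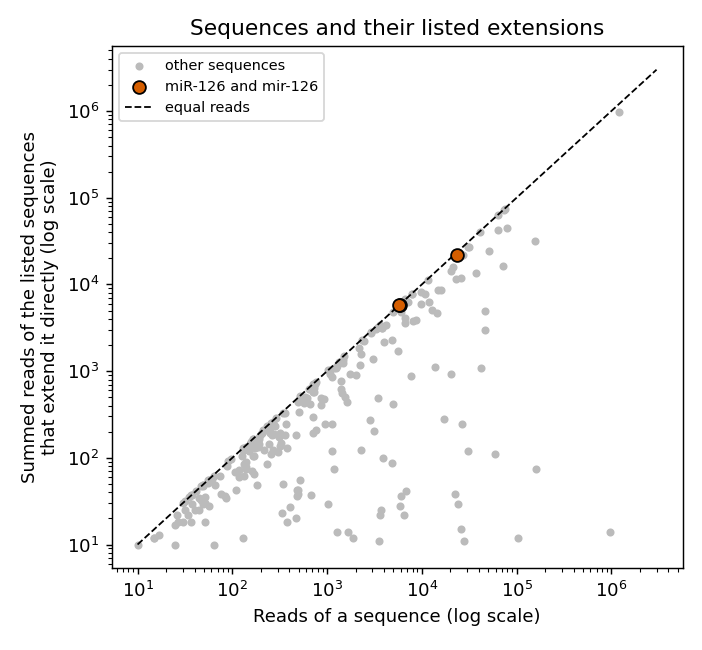
Reads of each of 256 sequences against the summed reads of the listed sequences that extend it directly, both on log axes, with a dashed line at equal reads. No point lies above the line. The 21-nt omy-miR-126-3p (23575 against 21856) and omy-mir-126a-5p at 16 and 17 nt (5814 against 5762, and 5762 against 5759) are in orange and lie just below it.

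In the pairs within a name, near-equal reads were uncommon. Of 233 pairs of known sequences of 1 name where the longer starts with the shorter, 22 (9.44%) differed by 2% or less, and all 3 pairs of omy-mir-126a-5p were among them. Its 17-nt and 18-nt sequences agreed to 99.9%. Its 3 pairs come from nested sequences, which would hold largely the same reads if the numbers include longer forms. For omy-miR-126-3p the 22-nt sequence had 43.1% of the reads of the 21-nt sequence.

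Summed by name, omy-miR-126-3p ranked 36th of 575 known names with 33735 reads (33376 to 34097), 0.439% of the summed column of known miRNAs. omy-mir-126a-5p followed at rank 61 with 17335 reads, omy-mir-126a-3p at 63 and omy-miR-126a-3p at 75. omy-miR-126b-5p was at rank 124 and omy-mir-126b-3p at 393. With the shortest sequence in place of the sum, omy-mir-126a-5p had 5814 reads and rank 102, and omy-miR-126-3p had 23575 reads and rank 44.

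The 6 names together held 82952 reads, 1.08% of the reads of known miRNAs (Clopper-Pearson interval 1.07 to 1.09). With shortest sequences only, in the table as among the members, it was 0.838%. The names written miR-126 held 49399 of these reads, or 0.643% of the known reads (0.637 to 0.649), and 0.466% with shortest sequences only. The names written mir-126 held 33553, or 40.4% of the reads of the 6 names (40.1 to 40.8), and 44.4% with shortest sequences only. For the place of the 3p arm, omy-miR-126-3p and omy-miR-126a-3p were joined, while names of other numbers were each counted alone. Taken over its 3 sequences, the 3p arm with 45431 reads lay below 27 known names of other numbers. Just above it were omy-miR-133b-3p with 49589 reads, of a muscle family, and omy-miR-21a-5p with 48279. Just below were omy-miR-200a-3p, of an epithelial family, with 45302, within the counting interval of the 3p arm, and omy-miR-19c-3p with 41480. With shortest sequences only, the 3p arm had 23575 reads and lay below 43 known names of other numbers. It was then placed between omy-let-7c-5p with 24084 reads and omy-miR-199-3-3p with 22818.

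**Figure D3:**
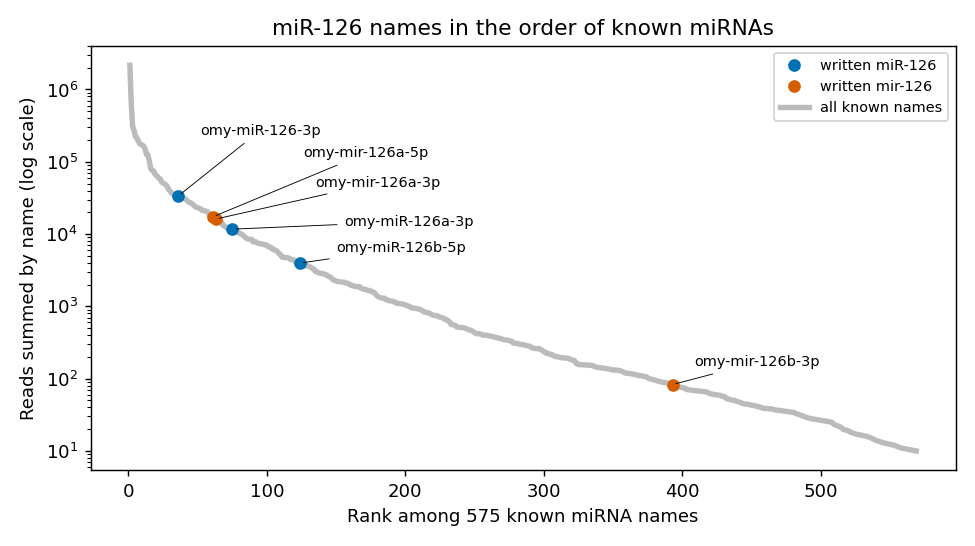
Reads summed by name (log axis) for all 575 known names in descending order (grey line), with the 6 miR-126 and mir-126 names as points. Of the names written miR-126 (blue), omy-miR-126-3p is at rank 36, omy-miR-126a-3p at 75 and omy-miR-126b-5p at 124, and of those written mir-126 (orange), 2 lie at ranks 61 and 63 and omy-mir-126b-3p at 393.

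The table lists 1 hairpin position per sequence and gave the names written miR-126 at 3 positions of the trout genome (build not given in the sources). The 22-nt omy-miR-126-3p and omy-miR-126b-5p share a hairpin of 59 nt that runs from 716451255 to 716451313 on the plus strand of chrUn. omy-miR-126a-3p lies on chrUn, minus strand, from 306744244 to 306744323. The 21-nt omy-miR-126-3p is listed on chrUn_Sex, minus strand, from 2366538 to 2366597, but its bases also begin both 22-nt sequences, so its reads cannot be assigned to 1 hairpin. No 5p sequence is listed at the last 2 positions, but with 1 position per sequence an identical 5p sequence there would not show. The letters of the names do not follow the hairpins, since only the 5p arm of the shared hairpin is named with a b. No hairpin of another known or predicted miRNA is listed as starting within 50 kb of any of the 3. A further copy of one there would not show with 1 position per sequence. What gene surrounds them was not analysed here.

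The 22-nt sequences are listed at different hairpins and differ in their last base alone. Whether that base is in the genome there was not tested. The sequence ending in G had 11696 reads and the one ending in A 10160, which is 53.5% and 46.5% of the 22-nt reads (Clopper-Pearson interval for G 52.9 to 54.2). The 22-nt reads were thus split nearly evenly, with the excess of G larger than counting error. Of the 45431 summed 3p reads, 51.9% were in the 21-nt sequence, 25.7% in the one ending in G and 22.4% in the one ending in A. These 3p shares hold only if the 21-nt number leaves out the 22-nt reads. If it includes them, at most 7.29% of the 21-nt number would end at base 21. The 22-nt sequences together had 92.7% of the reads of the 21-nt sequence, where the median over the 256 sequences with listed extensions was 65.3%. In 63 of the 256, this one included, the percent was as high or higher.

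The 3p arm was the more abundant arm under every way of counting the names written miR-126. By summed reads the 5p arm was 8.03% of both arms (Clopper-Pearson interval 7.79 to 8.28), 11.4 times fewer than 3p. With the 21-nt sequence alone for the 3p arm it was 14.4% (14.0 to 14.8). At the hairpin that both arms share, omy-miR-126b-5p had 3968 reads against 10160 of the 22-nt omy-miR-126-3p, or 28.1% (27.3 to 28.8). The last value leaves out the 21-nt reads, since their bases do not fix their hairpin. If all 6 names are counted by the arm in the name, 25.7% of reads were 5p, because omy-mir-126a-5p held 17335 of the 21303 reads so named.

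Most hairpins of these eggs were read far more from one arm than from the other. Over 152 hairpin positions listed for both arms, with the most read sequence of each arm, the lesser arm had a median of 4.70% of the reads, with quartiles of 0.727% and 20.4%. By its listed sequences the shared miR-126 hairpin, at 28.1%, lay above the upper quartile, and 28 positions had a larger percent. That percent leaves out the other 3p sequences, and its 5p reads may come from other hairpins too. The percents of the other positions can be affected in the same way, since they also rest on 1 listed position per sequence. Over the names written miR-126 the 5p arm was 14.4% with shortest sequences only and 8.03% by summed reads, both below the upper quartile. The place of miR-126 thus depended on which 3p reads were counted. No known sequence had under 10 reads, so hairpins with a lesser arm below that are not among the 152. The 3p arm was the larger in 71 positions, as for miR-126, the 5p arm in 80, and 1 was equal. This is a description over hairpins, with no test, because the values come from the same pooled reads.

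**Figure D4:**
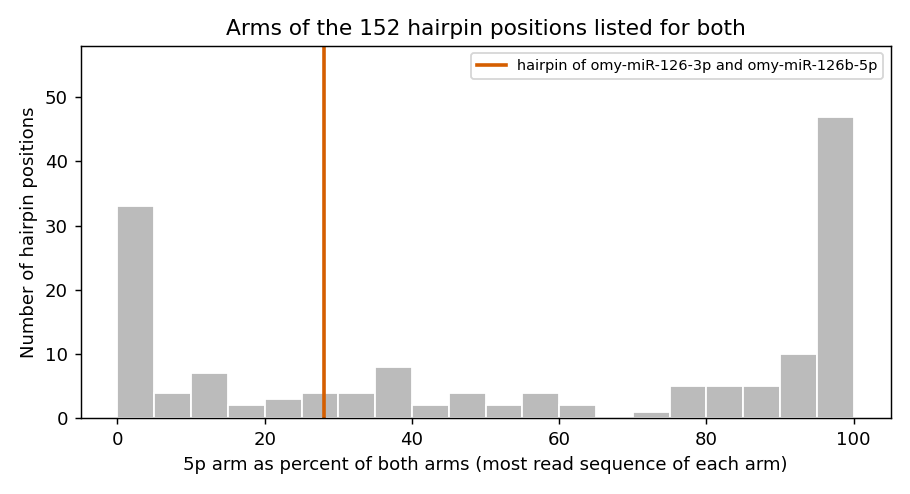
Number of hairpin positions by the 5p arm's percent of both arms, in steps of 5 percentage points, for the 152 positions listed for both arms. Most positions lie near 0 or near 100, and the shared hairpin of omy-miR-126-3p and omy-miR-126b-5p is marked at 28.1%.

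The arms of the shared hairpin could pair along nearly their whole length. Folded as a duplex, omy-miR-126b-5p and the 22-nt omy-miR-126-3p formed 18 base pairs at a predicted −22.3 kcal/mol, with unpaired bases at each 3′ end. omy-miR-126a-3p gave the same 18 pairs, since A22G lies in the unpaired 3′ end of the 3p sequence. omy-mir-126a-5p and omy-mir-126a-3p, arms of 1 precursor by their names, formed 7 pairs at −8.1 to −8.5 kcal/mol, depending on the length of the 5p sequence.

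The sequences written mir-126 were not found to be pieces of either arm. Their longest run of bases shared with the 22-nt 3p sequences or the 5p sequence was 5 for omy-mir-126a-3p, 4 for omy-mir-126b-3p and 3 for omy-mir-126a-5p. Over the 1050 known sequences of other numbers the median such run was 4 and the highest 8. With the reverse complement the runs were 5, 4 and 4, against a median of 4. At the best offset with at least 15 bases compared, omy-mir-126a-3p matched 60.0% of its bases, omy-mir-126b-3p 56.2% and omy-mir-126a-5p 37.5 to 41.2%. For the 169 sequences of other numbers of 18 nt or less the median was 46.7%, the 95th percentile 58.8% and the highest 62.5%. The likeness of the mir-126 sequences to miR-126 did not pass the highest of these, though omy-mir-126a-3p lay above the 95th percentile. The mir-126 sequences are kept here under their names, with no statement that they are endothelial. No known sequence of another number and no predicted sequence holds, or lies within, any of the 9 sequences.

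A lack of likeness to the placed miRNA of the same number was common for such names. Of the 110 other mir sequences without a position that could be set against a placed miR sequence of the same number and arm, 29 (26.4%) shared a run of at least 8 bases with it. Of the 5 mir-126 sequences it was 0, but 3 of these are nested forms of omy-mir-126a-5p and do not count separately. Of mir sequences that do have a position, 34 of 60 (56.7%) shared such a run.

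Most mir-126 sequences were among the most read of those without a position. The 230 known sequences without a position had a median of 66 reads and a median length of 18 nt, and held 2.12% of the known reads. omy-mir-126a-3p had 9.90% of these reads, the second most of the 230, and omy-mir-126a-5p was in places 8 to 10. The 5 sequences held 20.6% of the reads without a position when summed, and 14.98% with shortest sequences only. omy-mir-126b-3p, with 83 reads, was near the median.

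**Figure D5:**
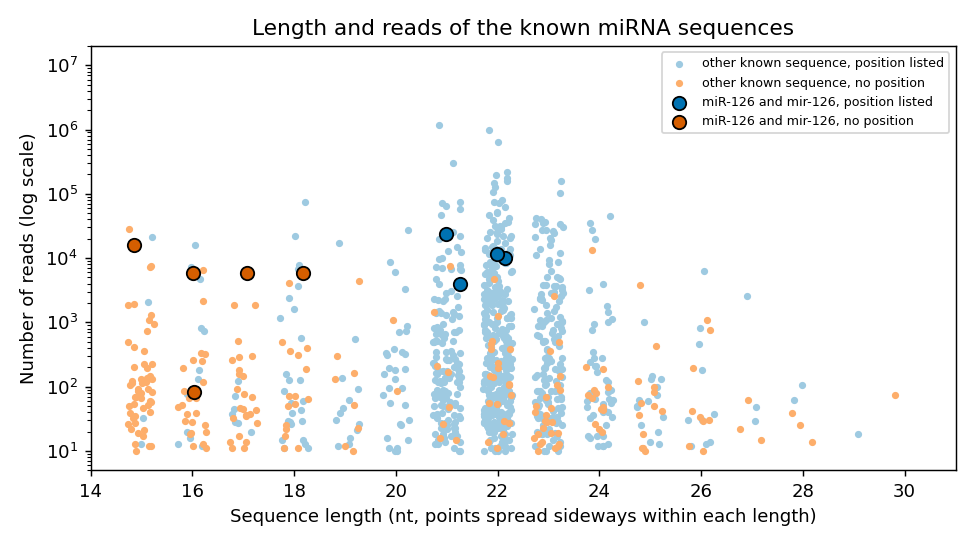
Number of reads (log axis) against length in nt for all 1059 known sequences, with the 9 miR-126 and mir-126 sequences as large points and colour for a listed hairpin position. The 4 placed sequences (blue) are 21 or 22 nt long, while the 5 without a position (orange) are 15 to 18 nt long and 4 of them have 5759 reads or more, against a median of 66 for sequences without a position.

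Beside the endothelial names, the eggs held miRNAs of families described in many cell types, which does not show that such cells were present. Shares and leading names are by summed known reads, with the share from shortest sequences only in parentheses. A list of 20 families described in vessels of mammals or zebrafish, without miR-126, had 19 families and 119 names in the table and 13.1% of the reads (14.5%), led by omy-miR-10b-5p. The smooth muscle list held 28.6% (20.7%), led by omy-miR-143-3p, and the muscle list 5.42% (6.31%), led by omy-miR-1-3p. The red blood cell list held 2.22% (1.08%), nearly all omy-miR-451-5p, and no name of its other family, miR-144, is among the names analysed here. The white blood cell list, which shares a family with the vessel list, held 0.690% (0.839%), led by omy-miR-146a-5p. The epithelial list, with 4 of its 5 families in the table, held 1.59% (2.06%), led by omy-miR-200a-3p. The liver list held 0.0637% (0.0446%), led by omy-miR-122-5p. The gonad list held 4.03% (5.23%), led by omy-miR-202-5p, and the early embryo list 0.370% (0.296%), led by omy-miR-430a-3p. The names written miR-126, at 0.643% (0.466%), lay below the white blood cell list and above the early embryo list in both counts. In RNA of whole eggs, reads of the egg cell itself and reads of any other cells cannot be told apart. Nor can the number of such cells and their RNA per cell. The part of blood or vessel cells in the miR-126 reads was not tested.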

How the data were processed

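Small RNA of eggs was sequenced by the authors on an Illumina GAIIx, with 1 library for each of 3 ages from RNA pooled over females. The deposited values are counts of reads for each unique sequence. The authors removed sequences of low quality or copy number, adapters and matches to mRNA, Rfam and Repbase, and then compared the rest with miRBase (ACGT101-miR software). The column of known miRNAs sums to 7684127 over sequences of 15 to 30 nt, none under 10 reads, and this sum may count a read more than once. The column names no library, so these tables give no depth per age and ages were not compared.

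From these counts, reads were summed by name, and exact Poisson intervals of reads and Clopper-Pearson intervals of shares were taken at 95%. These intervals describe counting error alone, and hold only if the values are reads. Shared runs, ungapped offsets and sequences that extend each other were found by exact string comparison, and duplexes with RNAduplex of ViennaRNA 2.7.2. Intervals and string functions were tested on simulated data. The members and lists were chosen with earlier results of these data known. All 6 names were described, and of others only the neighbours in reads of the 3p arm and the leading name of each list were named. The sequences come from the deposited table. No p-value is given, since there is no replicate. The scripts ran in Python 3.11.15 (SciPy 1.17.1, pandas 2.3.3, matplotlib 3.10.9, NumPy 2.4.6).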

Additional observations from a re-analysis of the deposited data

How the results depend on the processing

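No comparison of ages was possible with 1 pooled column, and shares depended on which sequences entered. The share of known reads held by the 6 names, 1.08%, was 0.657% with hairpin positions only, 0.732% with sequences of 18 nt or longer, 1.087% with the most read sequence of each name, 1.03% with predicted reads in the denominator and 1.01% with the shortest of nested sequences of 1 name. With alternatives chosen after seeing the data it was 0.838% with the shortest of nested sequences across names and 0.643% with the names written miR-126 only. The 5p share of 8.03% was 25.7% over all 6 names, 28.1% at the shared hairpin, 10.1% with the most read sequence of each name and, added later, 14.4% with the shortest of nested sequences. Merging 3p sequences over 21 bases left it at 8.03% by construction. With the mir-126 3p names in the denominator, the 21-nt, A-ending and G-ending shares of summed reads were 38.2%, 16.5% and 18.97%. Pairs with near-equal reads numbered 22 of 233 (9.44%) within 2% and 37 of 233 (15.9%) within 5%. Among pairs with at least 100 reads, 14 of 138 (10.1%) were within 2%. At 12 bases compared, the best match of a mir-126 sequence was 64.3%, against 60.0%, and the highest of other short sequences 66.7%. Of 28 alternatives on ranks, 24 were within 1.5 times. The exceptions were omy-mir-126a-5p, at 97 to 102 against 61, and omy-miR-126a-3p, at 45 against 75 when names differing in spelling were merged. Without sequences under 18 nt, omy-mir-126a-3p and omy-mir-126b-3p have no rank. In each case the change follows from which sequences or names are counted. No paired analysis was possible because the deposited column names no library.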
